A study of Mus musculus with 2 samples.

Results

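Replication-dependent histone genes were followed across both arrays of a study of poly(I:C)-treated mouse macrophages. The group was chosen by gene symbol: it held every probe set whose single symbol on the array began with Hist1h, Hist2h, Hist3h or Hist4h, whether or not its signal exceeded the background. A probe set is the set of array probes that is summarised to 1 value. The rule gave 66 probe sets with 44 symbols, of 35556 probe sets in all and 25305 with a single symbol. The group was proposed with its differences between these 2 arrays in view, so the differences below are a description and carry no test.

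Bone marrow cells of C57BL/6J mice, wild-type (WT) or Oasl1-/-, were grown into macrophages for 7 days in medium with L929 cell supernatant, a source of the macrophage growth factor M-CSF. Both genotypes were treated at 5 µg/ml for 9 h with poly(I:C), which mimics the double-stranded RNA of viruses, and no untreated array was analysed here. Oasl1 encodes an interferon-induced member of the oligoadenylate synthetase family, known in mouse for limiting the translation of the transcription factor IRF7. For each genotype, the total RNA of 3 samples was combined before it was hybridised to 1 array. The labels do not say whether the 3 samples came from separate mice. With 1 array per genotype there is no spread between replicates, so no value below has an error and no p-value can be had.

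Replication-dependent histones package newly made DNA, and their genes are read mainly in S phase. The core types, H2A, H2B, H3 and H4, form the nucleosome, and the linker histone H1 binds where DNA enters and leaves it. The genes lack introns and lie in clusters, and most of their mRNAs end in a stem-loop in place of a poly(A) tail. Histone variants such as H2A.Z and H3.3 come from genes outside these clusters and are also made outside S phase.

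The differences turned out to be small and mostly one way, so promoters of H1, H2B, H3 and H4 members are shown with the motifs they share or lack. Members at both ends of the range above background are among them, and no H2A window is shown. Each is a RefSeq window of 250 bases before to 50 bases after the annotated start, 5′ to 3′ on the gene's strand, with GRCm38.p6 coordinates. Capitals mark TATAAA (the TATA box), CCAAT (the CCAAT box, bound by NF-Y), ATTTGCAT (the octamer, bound by Oct1) and AAACACA (an element described in H1 promoters), each searched on both strands, with no overlap between motif types required or removed. Of the H1 genes above background, H1f5 and H1f1 were higher in Oasl1-/- and H1f2 was lower. H2bc9 had the largest positive difference above background, and H3c8 and H4c4 stand for H3 and H4. H2bc6 is shown for the octamer, which the other RefSeq window of this gene lacks. The array probe set named Hist1h2be lies beside that of Hist1h2ak, whereas RefSeq places H2bc6 between H4c4 and the H1 gene H1f4, so this window is not at the locus of the probe set.
H1f5 (Hist1h1b), chr13:21780576-21780875, minus strand: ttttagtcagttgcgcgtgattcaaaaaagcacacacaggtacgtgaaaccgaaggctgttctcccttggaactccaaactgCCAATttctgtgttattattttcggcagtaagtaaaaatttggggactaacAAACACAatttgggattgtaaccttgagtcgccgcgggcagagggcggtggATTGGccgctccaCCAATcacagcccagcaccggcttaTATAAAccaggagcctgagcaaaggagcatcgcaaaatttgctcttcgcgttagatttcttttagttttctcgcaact
H1f2 (Hist1h1c), chr13:23738557-23738856, plus strand: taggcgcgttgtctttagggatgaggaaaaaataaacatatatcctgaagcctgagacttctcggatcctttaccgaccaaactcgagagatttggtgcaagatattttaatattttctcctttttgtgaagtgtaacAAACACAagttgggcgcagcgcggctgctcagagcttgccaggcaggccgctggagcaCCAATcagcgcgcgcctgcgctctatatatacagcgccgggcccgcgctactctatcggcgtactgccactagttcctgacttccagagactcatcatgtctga
H1f1 (Hist1h1a), chr13:23763418-23763717, plus strand: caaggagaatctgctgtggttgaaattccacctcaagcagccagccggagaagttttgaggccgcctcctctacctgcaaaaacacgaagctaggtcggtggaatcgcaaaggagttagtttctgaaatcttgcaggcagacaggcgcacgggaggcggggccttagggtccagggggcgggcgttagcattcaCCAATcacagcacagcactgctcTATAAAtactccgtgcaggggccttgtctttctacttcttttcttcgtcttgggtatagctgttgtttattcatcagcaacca
H2bc9 (Hist1h2bh), chr13:23543395-23543694, minus strand: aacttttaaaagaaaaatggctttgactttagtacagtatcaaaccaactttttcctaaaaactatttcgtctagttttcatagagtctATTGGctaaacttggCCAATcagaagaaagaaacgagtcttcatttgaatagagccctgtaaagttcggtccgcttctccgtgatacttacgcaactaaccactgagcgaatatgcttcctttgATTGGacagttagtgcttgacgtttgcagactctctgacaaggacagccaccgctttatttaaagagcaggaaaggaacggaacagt
H2bc6 (Hist1h2be), chr13:23585921-23586220, minus strand: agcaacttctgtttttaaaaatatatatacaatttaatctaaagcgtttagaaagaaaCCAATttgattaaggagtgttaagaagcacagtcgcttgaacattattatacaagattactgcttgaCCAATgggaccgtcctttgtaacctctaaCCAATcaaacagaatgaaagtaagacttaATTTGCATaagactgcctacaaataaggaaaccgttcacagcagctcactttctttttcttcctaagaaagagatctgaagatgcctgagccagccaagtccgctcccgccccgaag
H3c8 (Hist1h3g), chr13:23535168-23535467, plus strand: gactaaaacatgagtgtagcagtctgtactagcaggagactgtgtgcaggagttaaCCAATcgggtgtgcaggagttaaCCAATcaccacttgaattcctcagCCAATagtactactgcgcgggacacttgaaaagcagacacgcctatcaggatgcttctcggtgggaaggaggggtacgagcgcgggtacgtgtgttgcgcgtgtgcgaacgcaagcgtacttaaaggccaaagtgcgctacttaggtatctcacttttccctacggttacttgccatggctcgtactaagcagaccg
H4c4 (Hist1h4d), chr13:23581318-23581617, plus strand: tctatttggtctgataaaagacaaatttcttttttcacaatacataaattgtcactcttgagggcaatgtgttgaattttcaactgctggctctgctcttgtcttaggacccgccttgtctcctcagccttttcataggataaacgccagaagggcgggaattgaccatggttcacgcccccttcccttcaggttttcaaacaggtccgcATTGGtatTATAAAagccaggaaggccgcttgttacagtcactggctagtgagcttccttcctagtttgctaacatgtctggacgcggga

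Windows were found for 38 of the 44 symbols, 39 windows in all because Hist1h2be has 2, of 32851 windows in the RefSeq table. CCAAT was in 33 of the 39 (84.6%), against 37.4% of all windows, and in every H1, H2A, H2B and H3 window but in only 2 of the 8 H4 windows. TATAAA was in 21 (53.8%), against 13.6% of all. Its matches lay from 250 bases before the start (Hist1h4f) to 21 bases after it (Hist1h2ak). In Hist1h2ae and Hist1h2bp it was on the opposite strand only. The 53.8% is therefore a share of windows with these letters, not of genes with a working TATA box. The octamer was in 11 (28.2%), against 1.74% of all, and these were 5 of 10 H2A and 6 of 10 H2B windows. AAACACA was in 9 (23.1%), against 7.18% of all, including 5 of the 6 H1 windows, where it began 112 to 122 bases before the start. The H1 window without it was that of Hist1h1a. Of the H1 genes above background, the higher Hist1h1b and the lower Hist1h1c both held AAACACA, whereas Hist1h1a, also higher, did not. TATAAA was in the windows of Hist1h1b and Hist1h1a and not in that of Hist1h1c. Whether a motif goes with the direction was not tested. The windows of Hist1h2ae and Hist1h2bg, of Hist1h2aa and Hist1h2ba, and of Hist1h2an and Hist1h2bp overlap on opposite strands. Each pair shares matches, so the counts of windows are not counts of separate sites. Hist1h2ae and Hist1h2bg share an octamer, as do Hist1h2aa and Hist1h2ba, which also share AAACACA. Such a match describes letters in a window and is no evidence of binding.

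Signals are log2 values, so a difference of 1 is a doubling, and every difference is given as Oasl1-/- minus WT. The background was set for each array from its 5267 negative controls: their 95th percentile, called the floor here, was 7.75 for WT and 7.68 for Oasl1-/-. The array medians were 5.72 and 5.74. Oasl1 itself read 12.59 in WT and 11.13 in Oasl1-/- (difference -1.46), so the array of the deleted genotype still gave a signal well above its floor. Of the probe sets with 1 symbol, 7527 passed the floor on 1 or both arrays, and their median difference was -0.04. Macrophage markers were bright: 10 of 10 were above the floor, with differences from -0.14 to 0.07, and no marker of B cells, T cells, erythroid cells or stromal fibroblasts was above it. Of the neutrophil and granulocyte precursor markers, 8 of 8 read higher in Oasl1-/-, but only 1 of the 8 passed a floor. That marker was Ngp, a neutrophil granule protein, which read 6.90 in WT and 7.79 in Oasl1-/- and passed the Oasl1-/- floor alone. The summed linear signal of the 8 was 451 in WT and 688 in Oasl1-/-. Both sums rest largely on signals too dim to pass the floor, so they do not measure a rise in neutrophil RNA. The part of such cells in the histone values was not tested.

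Of the 66 histone probe sets, 45 passed the floor on 1 or both arrays, 42 of them on both. Among these 45, 42 read higher in Oasl1-/- and 3 lower, where 37.5% of all 7527 probe sets above the floor read higher. The median difference of the 45 was 0.24, or 1.18-fold, and single values ran from -0.38 to 0.38. No histone probe set above the floor reached 1.5-fold in either direction, which 0.385% of all probe sets did upward and 0.531% downward. At 1.2-fold by the measured values, 15 were higher, beside 2.71% of all, and 1 was lower, beside 8.48% of all. Of the 15, 14 were above the floor on both arrays, and the other, Hist4h4, has a bound near 1 (below the floor in WT). Several members lay at this edge. A threshold of 0.2 on the log2 scale (1.15-fold), added after the values were seen, took in 36 of the 45 as higher. Of all 7527 probe sets above the floor, it took in 401 as higher. In RNA from whole cultures, a larger share of cells in S phase and more histone mRNA per cell cannot be told apart.

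**Figure D1:**
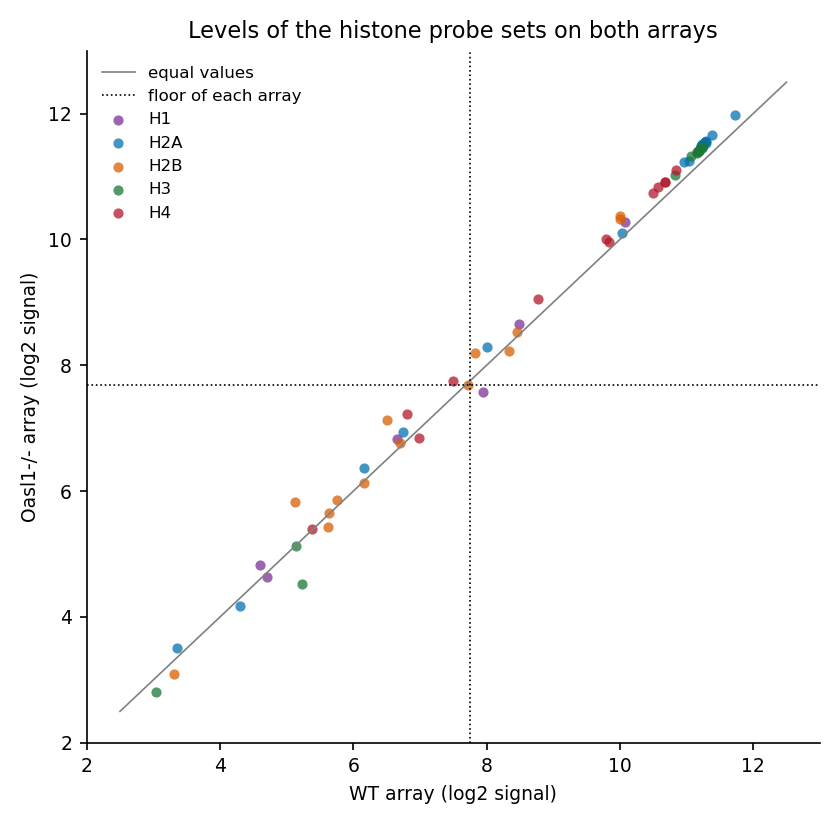
Signal of the 66 histone probe sets on the WT array (x axis, log2) and the Oasl1-/- array (y axis, log2), coloured by histone type. The solid line marks equal values and the dotted lines the floors, 7.75 and 7.68. Points at the bright end lie just above the line, and those below the floors lie on both sides of it.

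The positive differences were most regular among bright probe sets. All 34 members with a mean signal of at least 10 read higher in Oasl1-/-, beside 47.4% of the 2327 probe sets of that brightness. The differences of the 34 ran from 0.08 to 0.37, with a median of 0.24, beside a median of -0.01 over the 2327. Of the 34, 31 were higher by at least 0.2, beside 4.04% of the 2327 (94 probe sets). Those 31 made up 33.0% of the 94 and carried 12 symbols. The 11 members above the floor with a lower mean were less uniform, with 8 higher and 3 lower. Of all 5200 probe sets above the floor with a mean under 10, 33.1% read higher, with a median difference of -0.06. Below the floor on both arrays, 12 of 21 members read higher and 9 lower, from -0.70 to 0.70, with a median of 0.02. The share over all probe sets below the floor was not counted.

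The bright probe sets were not independent of each other. Of the 44 symbols, 8 had several probe sets, 30 in all, and many core histone genes of the same type have closely similar coding sequences. Probe sequences were not available, so probes shared between probe sets were not checked. The table assigned 38 to 42 probes of each of the 7 Hist1h2ao probe sets directly to the same transcript, although the probe sets lie at 7 places of chromosome 13. A pair of Hist1h4m probe sets at different places gave identical values, 10.68 in WT and 10.91 in Oasl1-/-. In 6 pairs the probe sets overlapped in position. Values of single genes are therefore uncertain, and the members are not replicates of each other.

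H2A had the most probe sets of the types, and those above the floor differed one way. Of 21 probe sets with 10 symbols, 17 were above the floor, and all 17 read higher in Oasl1-/-, by 0.08 to 0.29, with a median of 0.26. The brightest was a Hist2h2aa1 probe set, with 11.73 in WT and 11.98 in Oasl1-/- (difference 0.25, or 1.19-fold). It lies on chromosome 13 (chr13:51298057-51298434, NCBIM37), away from the Hist2 cluster on chromosome 3. The 4 Hist2h2aa1 probe sets within that cluster read 11.05 to 11.39 in WT and 11.25 to 11.66 in Oasl1-/-, with differences of 0.21 to 0.27. The probe sets of this canonical H2A gene thus differed from each other by less than 0.1 in their differences, on either chromosome.

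The 7 Hist1h2ao probe sets read 11.21 to 11.30 in WT and 11.47 to 11.56 in Oasl1-/-, with differences of 0.24 to 0.28. Hist1h2af read 11.21 in WT and 11.48 in Oasl1-/-. Hist1h2an read 11.24 and 11.51 on chromosome 13, and 10.96 and 11.22 at a place on chromosome 3. Each of these genes read higher on the Oasl1-/- array at every place. The largest H2A difference was that of Hist1h2ak, a dimmer probe set with 8.003 in WT and 8.29 in Oasl1-/- (difference 0.29, or 1.22-fold). Only 9 of the 19 probes of Hist1h2ak are assigned directly. The smallest H2A difference above the floor was that of Hist3h2a, the H2A gene of the small chromosome 11 cluster, with 10.03 in WT and 10.11 in Oasl1-/- (difference 0.08). Hist3h2a has all 46 probes assigned directly. The other 4 H2A symbols were below the floor on both arrays: Hist1h2aa, the testis form known as TH2A (6.75 and 6.94), and Hist1h2ab, Hist1h2ac and Hist1h2ae, whose levels ran from 3.36 to 6.16 in WT.

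H2B members went both ways. The type had 14 probe sets with 12 symbols, of which 6 were above the floor, 4 higher and 2 lower, from -0.11 to 0.38, with a median of 0.20. Hist1h2bh read 7.82 in WT and 8.20 in Oasl1-/- (difference 0.38, or 1.30-fold), the largest positive difference among members above the floor, though its WT level lay just above the floor. Hist1h2be read 10.00 in WT and 10.37 in Oasl1-/- (difference 0.37, or 1.29-fold), and a Hist1h2bc probe set read 10.00 and 10.33 (difference 0.33, or 1.26-fold). These were the 3 largest positive differences above the floor, and each was in an H2B gene.

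A second Hist1h2bc probe set went the other way, with 8.33 in WT and 8.22 in Oasl1-/- (difference -0.11). It spans chr13:23776068-23784357 (NCBIM37), and all 13 of its probes are assigned directly, beside 19 of 31 for the brighter one. The remaining one was below the floor, with 3.30 and 3.10. The 3 probe sets of this symbol therefore disagreed in sign. The brighter one lies at another place (chr13:23665679-23666059), whereas the second and the remaining one overlap in position. Hist1h2bm, with 8.46 in WT and 8.53 in Oasl1-/-, and Hist2h2bb on chromosome 3, with 7.72 and 7.69, differed by less than 0.1. Hist2h2bb passed the floor on the Oasl1-/- array only, where the floor is lower, so it has no fold, and its sign turned when the differences were centred on the median of all probe sets (0.01).

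The other H2B members were below the floor on both arrays and have no fold. Hist1h2ba, the testis form TH2B, read 5.13 in WT and 5.83 in Oasl1-/-, and Hist1h2bb read 6.502 and 7.14. Of the H2B genes on chromosome 11, Hist3h2ba read 6.16 and 6.13 and Hist3h2bb 6.71 and 6.76, both below the floor. The remaining H2B members, Hist1h2bg, Hist1h2bp and Hist2h2be, read from 5.61 to 5.75 in WT and from 5.43 to 5.86 in Oasl1-/-.

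H3 probe sets differed by nearly one amount. Of 13 with 7 symbols, 10 were above the floor, all higher in Oasl1-/-, by 0.19 to 0.27, with a median of 0.23. The brightest was a Hist1h3f probe set, with 11.25 in WT and 11.49 in Oasl1-/- (difference 0.24, or 1.18-fold). The 2 other bright Hist1h3f probe sets read 11.07 and 11.22 in WT and 11.33 and 11.45 in Oasl1-/-. The 4 Hist1h3g probe sets read 11.16 to 11.20 in WT and 11.38 to 11.44 in Oasl1-/-. Each of these 7 read higher on the Oasl1-/- array. Hist1h3a read 11.19 and 11.41, and the chromosome 3 genes Hist2h3b and Hist2h3c1 read 11.16 and 11.38, and 10.83 and 11.02. Hist2h3b and Hist2h3c1 encode H3.2, the replication-dependent H3 of that cluster. The 3 H3 probe sets below the floor read the same or lower in Oasl1-/-: Hist1h3d 5.14 and 5.13, the dim Hist1h3f probe set 3.04 and 2.81, and Hist2h3c2 5.23 and 4.52.

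H4 genes all encode the same protein and also differed one way. Of 12 probe sets with 9 symbols, 9 were above the floor, all higher in Oasl1-/-, by 0.12 to 0.28, with a median of 0.24. The 3 Hist1h4b probe sets, the brightest among them with 10.85 in WT and 11.10 in Oasl1-/-, differed by 0.24 to 0.26. Hist1h4f had the largest difference above the floor, with 8.78 in WT and 9.05 in Oasl1-/- (0.28, or 1.21-fold). Hist1h4d read 9.79 and 10.01, and Hist2h4 on chromosome 3 read 9.84 and 9.96, the smallest difference of the type above the floor (0.12). Hist4h4, which stands alone on chromosome 6 (chr6:136752589-136752903, NCBIM37), was below the floor in WT with 7.49 and above it in Oasl1-/- with 7.76. That is at least 1.00-fold higher, a bound that leaves no measured difference. Below the floor on both arrays, Hist1h4c read 6.80 and 7.23, Hist1h4h 5.38 and 5.40, and Hist1h4i 6.99 and 6.84.

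Members of the linker histone H1 above the floor went both ways, as those of H2B did. All 6 H1 symbols have a single probe set, and 3 were above the floor. Hist1h1b, encoding H1.5, read 10.08 in WT and 10.28 in Oasl1-/- (difference 0.20, or 1.15-fold), and Hist1h1a, encoding H1.1, read 8.49 and 8.66 (difference 0.17, or 1.12-fold). Hist1h1c, encoding H1.2, read 7.95 in WT and 7.57 in Oasl1-/- (difference -0.38), the largest negative difference among members above the floor. Its Oasl1-/- signal was below the floor, so it was at least 1.2-fold lower. Hist1h1c is known to be made also as a polyadenylated mRNA in differentiated cells. The other 3 were below the floor on both arrays: Hist1h1d, encoding H1.3, with 4.60 and 4.83, Hist1h1e, encoding H1.4, with 6.65 and 6.82, and the testis form Hist1h1t with 4.70 and 4.64.

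**Figure D2:**
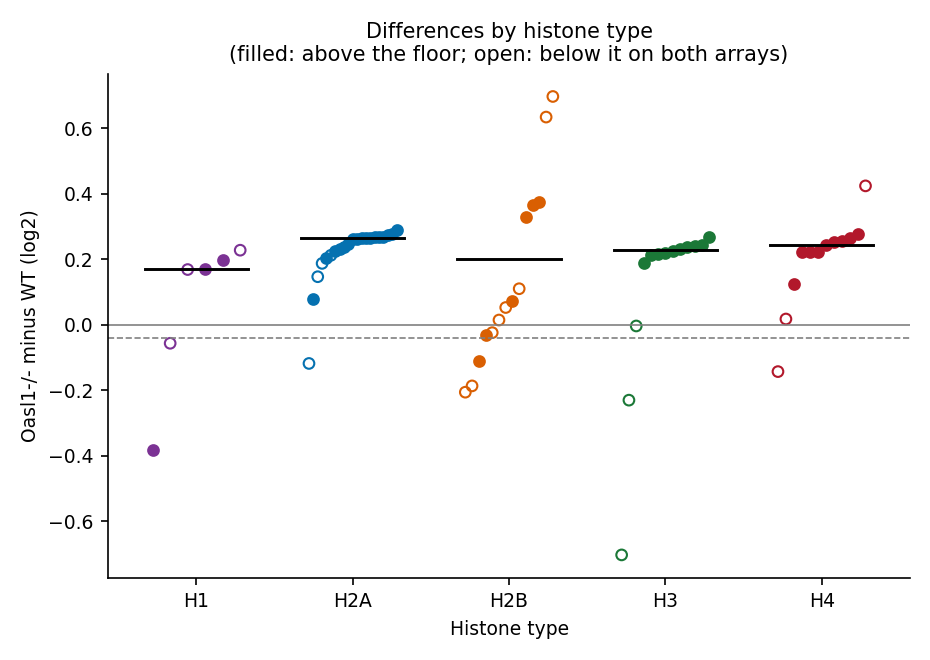
Difference in log2 signal (Oasl1-/- minus WT, y axis) of the 66 histone probe sets by histone type (x axis). Filled points passed the floor on 1 or both arrays and open points on neither, bars are medians of the filled points, and the dashed line is the median of all probe sets above the floor (-0.04). Filled H2A, H3 and H4 points lie between 0.08 and 0.29, while H1 and H2B have points on both sides of 0.

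The clusters on chromosomes 13 and 3 held most members. Chromosome 13 held 51 of the probe sets. A first block of 18 (chr13:21808281-22134818, NCBIM37) had 16 above the floor, all higher in Oasl1-/-, with a median of 0.26. A second block of 32 (chr13:23622919-24026720) had 17 above it, 15 higher and 2 lower, with a median of 0.24. The 2 lower were Hist1h1c and the second Hist1h2bc probe set. On chromosome 3, 11 probe sets (chr3:96023839-96082947) had 9 above the floor, 8 higher and 1 lower, with a median of 0.21. Chromosome 11 (chr11:58762413-58770176) had 3 probe sets, of which Hist3h2a was above the floor, with a difference of 0.08.

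Non-histone genes beside the chromosome 13 cluster were mostly dim on these arrays: 2 of the 16 measured were above the floor. Hfe, which encodes a regulator of iron uptake, read 8.18 in WT and 8.25 in Oasl1-/-, and Lrrc16a, encoding a regulator of actin capping, read 8.88 and 8.71. Neither differed by as much as 0.2.

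**Figure D3:**
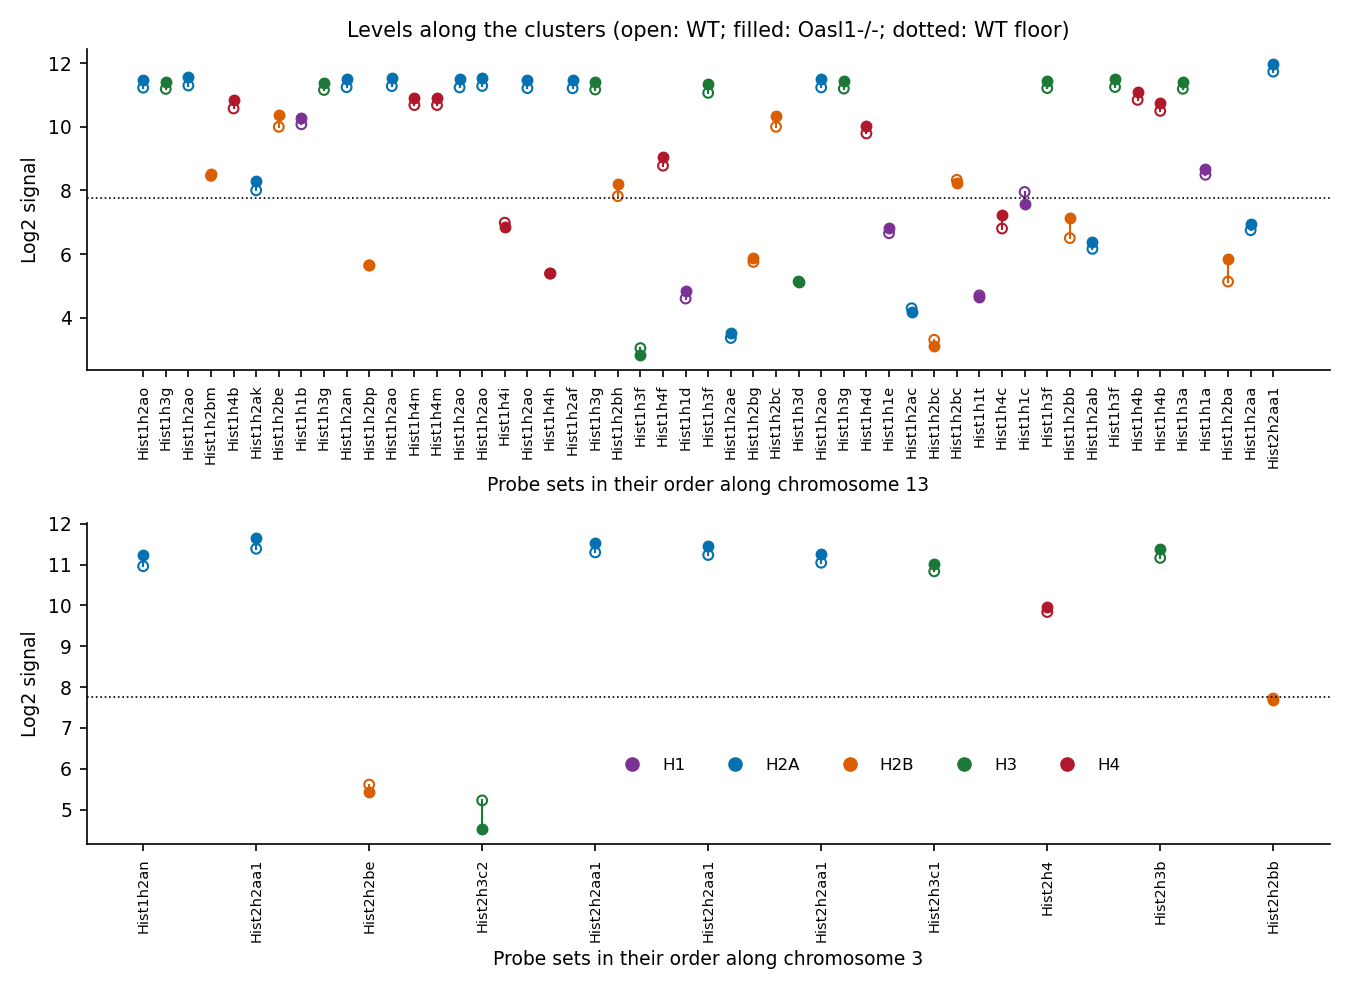
Log2 signal (y axis) of the histone probe sets in their order along chromosomes 13 (top) and 3 (bottom), coloured by histone type, with open points for WT, filled points for Oasl1-/- and the WT floor of 7.75 dotted. Bright members lie among dim ones in both clusters, and filled points lie above open ones for 32 of the 34 above the floor on chromosome 13 and 8 of the 9 on chromosome 3.

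Genes that act with the replication-dependent histones were listed by role and read the same way, each by its brightest probe set on its own chromosome. Histone variants encoded outside the clusters had 13 of 14 genes on the array and 6 above the floor, 3 higher and 3 lower, with a median of 0.05 that turned to -0.02 over genes above the floor on both arrays. H2afz, encoding the variant H2A.Z, read 10.74 in WT and 11.02 in Oasl1-/- (difference 0.27, or 1.21-fold). Cenpa, encoding the H3 variant of centromeres, read 7.51 in WT and 7.71 in Oasl1-/-, the first of them below the floor. H3f3a and H3f3b, which encode H3.3, read 10.59 and 10.48, and 12.22 and 12.20. The counts of higher and lower genes in these lists hold for the deposited scale, on which the median of all probe sets was -0.04.

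Of the genes for 3′ processing and turnover of histone mRNA, 15 of 20 were above the floor, 5 higher and 10 lower, with a median of -0.06 that turned to 0.01 when a loess trend on signal was removed. Slbp, encoding the protein that binds the stem-loop, read 8.65 in WT and 8.77 in Oasl1-/- (difference 0.12). The largest differences were in Zcchc11, a terminal uridyltransferase, with 8.98 and 8.69 (difference -0.29), and Ncbp2, a cap-binding subunit, with 8.40 and 8.18. Of the histone chaperones and assembly factors, 15 of 19 were above the floor, 6 higher and 9 lower, with a median of -0.04. The chaperone Asf1a read 7.89 in WT and 7.48 in Oasl1-/-, and the chromatin remodeller Atrx 7.94 and 7.56, both below the floor in Oasl1-/-.

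S phase genes had 17 of 23 above the floor, 10 higher and 7 lower, with a median of 0.02, or 0.09 when a loess trend was removed. Mcm3, a subunit of the replicative helicase, read 8.68 in WT and 8.96 in Oasl1-/- (difference 0.28, or 1.22-fold), whereas Ccne1, encoding cyclin E1, read 9.16 and 8.88 (difference -0.27). Genes of G2 and M phase had 9 of 15 above the floor, 8 higher and 1 lower, with a median of 0.08, or 0.16 under loess and quantile normalization and 0.17 over genes above the floor on both arrays. Ccnb1, encoding cyclin B1, read 8.33 in WT and 8.61 in Oasl1-/- (difference 0.28, or 1.22-fold), and Ccnb2 read 8.19 and 8.40. No gene of these lists that was above the floor reached 1.5-fold, and the median of each lay below the 0.24 of the histone probe sets. The units differ, because the 0.24 counts several probe sets for some genes and the lists take 1 per gene. With the mean per symbol the histone median was 0.22. For the 11 members above the floor with a mean signal under 10 it was 0.17. Whether the lists differ from the histone genes was not tested.

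**Figure D4:**
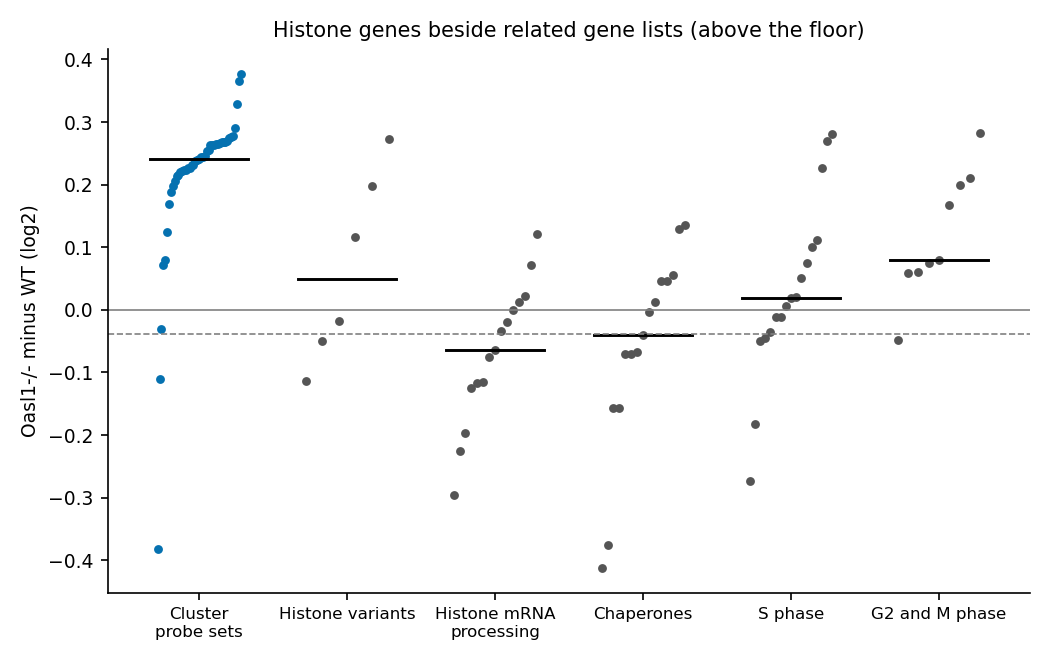
Difference in log2 signal (Oasl1-/- minus WT, y axis) of the 45 histone probe sets above the floor (blue) and of the genes above the floor in 5 related lists (grey, x axis), with a bar at each median and a dashed line at the median of all probe sets above the floor (-0.04). The histone median is 0.24 and the list medians run from -0.06 to 0.08.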

How the data were processed

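Affymetrix Mouse Gene ST arrays were used, 1 per genotype. The values are log2 signals per probe set as deposited by the authors, made with GCOS and RMA per the submitters' processing notes, which give no version. RMA subtracts background, equalises the distributions of arrays and combines the probes of each set. The sources used here do not say whether the arrays were normalized as a pair. A second deposited table differed from the first by 0 in every probe set. RMA compresses differences of dim probe sets, and the number of arrays limits the precision.

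Differences are Oasl1-/- minus WT. The members and lists were chosen with earlier results of these data known. Any member could be named, and of each list the 2 genes with the largest differences. Slbp, H3f3a and H3f3b fall outside this rule and were named after their values were seen. For a member past the floor on 1 array, the fold is a bound, taken against the dim array's floor or value, whichever was higher. List genes are represented by the brightest probe set on the gene's own chromosome, otherwise by the brightest. Array symbols date from its design, and 65 of the 66 probe sets matched a RefSeq gene by accession. Alternatives covered the floor, the fold, centring, loess (span 0.3), quantile normalization, the second table, the mean per symbol, log2 of the linear value plus 32, and probe sets on other chromosomes. Scripts used Python 3.11.15, pandas 2.3.3 and statsmodels 0.14.6, and were tested on simulated data.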

Additional observations from a re-analysis of the deposited data

How the results depend on the processing

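Of 204 recomputed counts and medians, 194 stayed within 1.5 times the count or within 0.14 of the median and 10 did not. Some of the 204 could not move. The second table holds the same values, and a 2-fold count is 0 where the 1.5-fold count is 0. The 0.14 also exceeds the median of every related gene list, so a turn of sign there can count as unmoved. The 194 are therefore no measure of robustness. Taking the mean of the probe sets of a symbol left 24 values above the floor. With no member at 1.5-fold, 15 were higher and 1 lower at 1.2-fold, and 36 higher and 1 lower at 0.2 on the log2 scale, a threshold chosen after seeing the data. Of all 7527 probe sets above the floor, 204 were higher and 638 lower at 1.2-fold, and 401 higher at 0.2. With no floor, 2 members were at least 1.5-fold higher and 1 lower, and with the array median as the floor 2 members were higher. The H2B median was 0.063 with no floor, and the chromosome 6 value was 0.0055 with signals below the floor set to the floor. The median of the members above the floor stayed between 0.22 and 0.28 over the alternatives run. Quantile normalization moved the median of all probe sets from -0.04 to -0.01. Centring, loess and quantile normalization each turned the sign of 1 of the 45 members above the floor, Hist2h2bb, to 43 higher. The median of the mRNA processing genes was positive under loess (0.01) and quantile normalization (0.001), and that of the cluster's neighbours likewise (0.03 and 0.03). The median of the histone variants was -0.02 with the floor required on both arrays or set at the array median, and -0.01 with signals set to the floor. The S phase median ran from 0.01 to 0.09 and the G2 and M phase median from 0.07 to 0.17. The causes of these shifts were not tested. Signal over background limits the 21 members below the floor, whose differences have no order. No paired analysis was possible because each genotype has 1 array of mixed RNA.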

Other observations

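Another 5 probe sets, 3 within the first chromosome 13 block and 2 just outside its ends, carry a clone name in place of a histone symbol on the array and so fall outside the rule, but their accession is that of the H2B gene H2bc23 in RefSeq. All 5 were above the floor, with 9.66 to 10.36 in WT and 10.00 to 10.73 in Oasl1-/-. Their differences were 0.34, 0.34, 0.36, 0.38 and 0.40, and a pair of them gave identical values at different places. With them, a choice made after seeing the data, 50 probe sets were above the floor and their median difference was 0.25. A second H2afz probe set, on chromosome 6, read 10.999 in WT and 11.27 in Oasl1-/-. A second Slbp probe set, on chromosome 14, read 9.09 and 8.97, opposite in sign to the one on the gene's own chromosome.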
